A study of Mus musculus with 7 samples.

Results

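The loci described here are 6 genes of the mouse X chromosome, Kdm6a, Kdm5c, Ddx3x, Eif2s3x, Pbdc1 and 5530601H04Rik, which are known to be transcribed from the inactive X as well as from the active X. Their open chromatin was read as ATAC-seq peaks, stretches of DNA accessible enough for the Tn5 transposase to cut and tag. Members were chosen by position alone, as every peak that touches one of 5 windows of the mm9 build. The windows were chrX:17730000-17860000 for Kdm6a, chrX:148660000-148720000 for Kdm5c, chrX:12850000-12880000 for Ddx3x, chrX:91430000-91470000 for Eif2s3x and chrX:102260000-102310000, which holds both Pbdc1 and 5530601H04Rik. These windows held 70 of the 644207 peaks in the 7 lists used. The female lists held 8 member peaks in embryonic stem cells (mESC), 10 in wild-type neural progenitor cells (NPC) and 10 in deltaFT NPC. The male lists held 13 in TXY wild type without doxycycline (dox), 8 in TXY wild type with dox, 12 in TXY deltaRepA without dox and 9 in TXY deltaRepA with dox.

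The 3 female samples carried the cross 129S1 x Cast:EiJ: mESC of line F1216, wild-type NPC of line C2 and deltaFT NPC of line sgdgb2. The labels give the deletion by name alone; as background, deltaFT is known from the study as a deletion on the inactive X of the boundary region that holds the Dxz4 macrosatellite. Because the deletion was measured in 1 line and wild type in another, deletion and line cannot be told apart. The 4 male samples were J1 mESC (TXY) in which doxycycline switches on Xist at its own locus. The Xist gene was complete (TXY WT) or had lost the RepA region (TXY deltaRepA), and the cells were untreated or given 2 ug/mL dox for 48 hours. Each group was 1 sample, so no difference between groups has a replicate check and no p-value is given. Intervals are 95% intervals, exact Clopper-Pearson for a share and Newcombe for a difference of shares, and cover counting error alone, since PCR copies of a molecule could not be told from separate molecules.

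In female cells that have inactivated an X, Xist RNA coats that chromosome and most of its genes are silenced and their promoters closed. A small group of genes escapes, and the genes described here are among those that do so in nearly every mouse tissue examined. Kdm6a and Kdm5c encode histone demethylases, the first acting on the mark laid down by Polycomb and the second on a mark of active promoters. Ddx3x encodes an RNA helicase and Eif2s3x a subunit of a translation initiation factor. Kdm6a, Kdm5c, Ddx3x and Eif2s3x have close relatives on the Y chromosome. Pbdc1 is a protein-coding gene, and 5530601H04Rik is a long noncoding RNA gene that starts next to it on the opposite strand.

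The promoters of all 6 genes were found by symbol in the RefSeq table of the GRCm38.p6 build. Each entry holds 250 bases before and 50 after the annotated start. Starts were not placed on mm9, so no peak was assigned to an exon, an intron or a start, and the sequences are shown as those of the genes and not of a peak. The sequences of Eif2s3x and Kdm5c are shown because they share a match to the YY1 motif. Those of 5530601H04Rik and Pbdc1 are shown because these neighbours share a match to the ETS motif and one of their sites differs between the lines below. All run 5′ to 3′ on the gene's own strand, which is plus for Kdm5c and Pbdc1 and minus for Eif2s3x and 5530601H04Rik. Capitals mark every match to the motifs searched on both strands: YY1 (GCCATNTT), NRF1 (GCGCA followed by its reverse complement), the GC box (GGGCGG), the CCAAT box (CCAAT) and ETS (CCGGAAGT). The capitals that start AAGATGGC are the YY1 matches on the reverse strand.
Eif2s3x: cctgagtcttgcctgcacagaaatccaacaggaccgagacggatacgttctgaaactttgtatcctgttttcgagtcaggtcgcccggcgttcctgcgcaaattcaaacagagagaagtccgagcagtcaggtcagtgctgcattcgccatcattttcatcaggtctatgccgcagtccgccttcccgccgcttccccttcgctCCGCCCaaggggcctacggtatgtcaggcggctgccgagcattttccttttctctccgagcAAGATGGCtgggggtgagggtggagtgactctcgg
Kdm5c: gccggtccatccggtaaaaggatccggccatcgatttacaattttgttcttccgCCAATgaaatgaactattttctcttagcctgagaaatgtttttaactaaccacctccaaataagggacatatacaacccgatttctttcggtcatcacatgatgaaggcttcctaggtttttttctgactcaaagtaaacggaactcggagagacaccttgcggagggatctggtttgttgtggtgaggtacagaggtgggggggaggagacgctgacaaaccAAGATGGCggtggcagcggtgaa
5530601H04Rik: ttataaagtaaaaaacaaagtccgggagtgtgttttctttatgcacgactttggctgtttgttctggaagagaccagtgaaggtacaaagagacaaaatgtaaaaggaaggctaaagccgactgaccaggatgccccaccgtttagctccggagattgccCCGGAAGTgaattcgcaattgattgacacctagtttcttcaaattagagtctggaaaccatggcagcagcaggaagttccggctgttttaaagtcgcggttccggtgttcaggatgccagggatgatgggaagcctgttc
Pbdc1: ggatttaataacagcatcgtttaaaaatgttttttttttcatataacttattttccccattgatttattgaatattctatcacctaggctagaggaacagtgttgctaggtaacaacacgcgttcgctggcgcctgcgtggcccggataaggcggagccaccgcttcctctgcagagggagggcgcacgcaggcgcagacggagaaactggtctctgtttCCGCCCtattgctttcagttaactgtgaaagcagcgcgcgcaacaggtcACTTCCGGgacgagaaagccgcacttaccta
The YY1 match began at base 16 after the start in Eif2s3x and at base 28 in Kdm5c, and 6.05% of 32851 promoters of the table hold one. ETS matches were in 2 of the 6 promoters, those of Pbdc1 and 5530601H04Rik, and in 3.89% of all promoters. GC boxes were in 4 of the 6, all but Kdm5c and 5530601H04Rik, next to 35.7% of all promoters. The CCAAT box was in Kdm5c alone of the 6, and 37.4% of all promoters hold it. No member promoter held the NRF1 letters, which are in 0.971% of promoters. The promoters of the 6 genes held 11 to 25 CpG, most in Ddx3x and fewest in 5530601H04Rik, against a median of 7 over the table. Fewer CpG were held by 58.6% of all promoters than by 5530601H04Rik and by 81.6% than by Ddx3x, so these numbers are common. A match is a description of the letters and not evidence of binding.

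Facts of the whole lists that bear on these genes are few. The 3 female lists held 6490181 to 11085592 reads in peaks, of which 38.5% to 40.4% were assigned to an allele. The deposited tables do not name the alleles, so they are called first-listed and second-listed. The male lists held 34 to 40 peaks on the Y chromosome and the female lists 0. Markers of stem cells and progenitors were not placed on mm9, so the cell types were not checked beyond sex and the alleles of the X. Both mESC library lists held a peak at each of the 8 member peaks of the mESC list. As the mESC list holds reproducible peaks only, this follows largely from its selection and is no separate check. The chrX rows of the 2 wild-type NPC libraries were the same 7114 rows, and those of the 2 deltaFT libraries the same 6657, so the NPC lines offer no second chrX measurement.

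Each of the 6 genes had 1 site that was open in all 7 samples. Peaks of all lists that overlapped were joined into 18 sites, of which 6 were found in all 7 lists. Over the whole of chrX 7.92% of 4649 such sites were in all 7. The Kdm6a site spanned chrX:17738814-17740016, the Kdm5c site chrX:148667150-148668036, the Ddx3x site chrX:12857495-12859414 and the Eif2s3x site chrX:91457421-91459060. The remaining pair lay at chrX:102265130-102265884 and chrX:102274736-102275594. In the RefSeq order of genes the noncoding 5530601H04Rik lies below Pbdc1 and the genes point away from each other, so the lower site is named here for 5530601H04Rik and the upper one for Pbdc1. These sites are called the common sites.

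**Figure D1:**
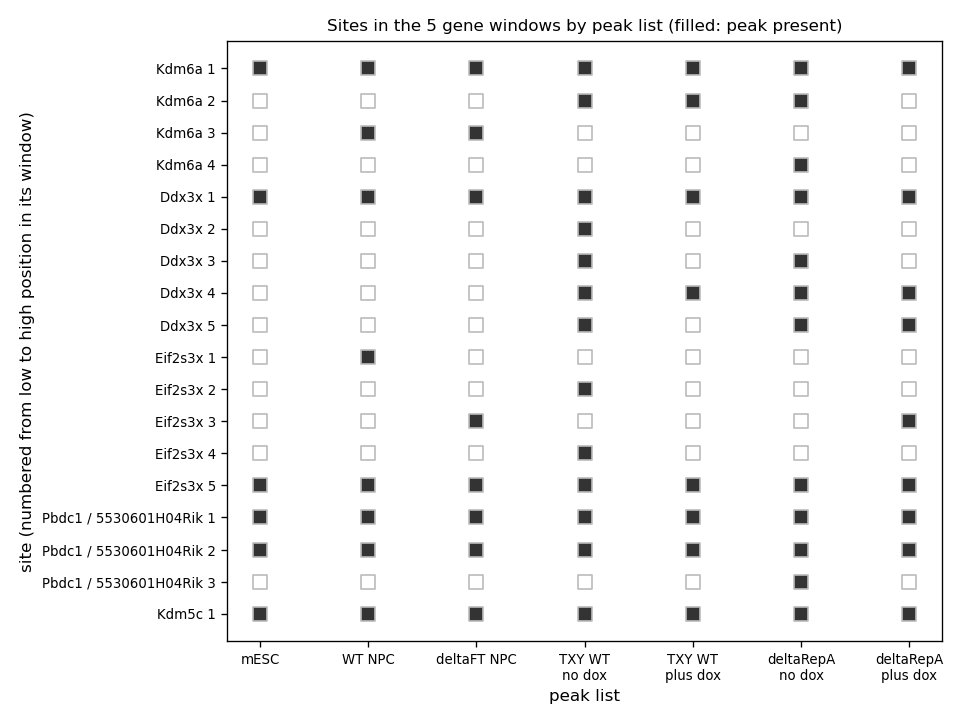
Presence of a peak (filled square) at each of the 18 sites in the gene windows, by peak list (columns); sites are numbered from low to high position within a window. The 6 common sites are filled in every column, and 9 of the other sites were found in male lists alone.

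The other 12 sites were found in 1 to 4 lists. In the Ddx3x window, chrX:12873064-12873947 was open in all 4 male lists and in none of the 3 female lists of reproducible peaks, while both mESC library lists had a peak there. In the Kdm6a window, chrX:17831968-17832184 was open in both NPC lists and in no male list, and 1 of the 2 mESC library lists had a peak there. Male and female lists were made with different selection of peaks, so a site missing from one kind of list is not shown to be closed.

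The Kdm6a site was the most open of the 6 per length in every female list. It held 1121 reads in mESC, 1584 in wild-type NPC and 1614 in deltaFT NPC, ranks 10 of 1369, 10 of 1434 and 1 of 1234 among chrX peaks. The Kdm5c site held 394, 600 and 608 reads in the same order of samples. The Ddx3x site held 343, 461 and 1244 reads. This last value came with a longer called interval: 629, 718 and 1685 bp were called. Per 100 bp the reads were 54.5, 64.2 and 73.8. Most of the higher total in deltaFT than in wild-type NPC thus went with the length of the interval. These reads are not scaled for depth, and the lists held 6176798, 10724324 and 10845382 autosomal reads. Scaled to autosomal reads, the reads per 100 bp at Ddx3x were highest in mESC, at 8.83, 5.99 and 6.81 in relative units.

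The Eif2s3x site was called as 3, 3 and 2 neighbouring peaks with 396, 550 and 682 reads in mESC, wild-type NPC and deltaFT NPC. The 5530601H04Rik site held 159, 495 and 243 reads, and the Pbdc1 site 298, 568 and 560. At the 5530601H04Rik site the called length also differed, with 504, 755 and 304 bp, and the reads per 100 bp were 31.5, 65.6 and 79.9. Reads per 100 bp were 118, 163 and 150 at Kdm6a and 109, 162 and 85.9 at Kdm5c, which came next in all 3 lines and in mESC and wild-type NPC lay within 10 reads of Kdm6a. The Kdm5c site in deltaFT was called as 2 peaks over 708 bp, next to 1 peak of 360 bp in mESC and 370 bp in wild-type NPC. In mESC the order below these was Ddx3x, Eif2s3x, Pbdc1 and 5530601H04Rik. These reads per 100 bp are also not scaled for depth. Scaled to autosomal reads, Kdm6a stood at 19.1, 15.2 and 13.8 and Kdm5c at 17.7, 15.1 and 7.92. Eif2s3x stood at 8.37, 5.13 and 6.41, so these sites too were highest in mESC. Pbdc1, at 7.09, 7.62 and 7.31, and 5530601H04Rik, at 5.11, 6.11 and 7.37, were lowest there.

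Set against the median change of autosomal peaks, the matched member peaks had a median level close to or above that of mESC in progenitors. Other chrX peaks were lower. For peaks matched by overlap, reads per bp (with 1 read added to each peak) were set against the median change of autosomal peaks. From mESC to wild-type NPC the 8 matched member peaks changed by a median log2 of 0.19, between -0.85 and 0.72, and 475 other chrX peaks by a median of -0.39. From mESC to deltaFT NPC the member median was -0.01 and that of 484 other chrX peaks -0.64. Of the other chrX peaks 29.5% and 11.2% lay above the autosomal median, next to 5 of 8 and 4 of 8 member peaks. From wild-type to deltaFT NPC the 9 member pairs changed by a median of -0.06 and 764 others by -0.20, with a middle range of the others from -0.62 to 0.17 that spans the member median. Neighbouring peaks of Eif2s3x can be matched to the same peak, so the pairs are not independent. The direction of the member change from mESC depends on the scaling. Scaled to autosomal reads, reads per 100 bp at Kdm6a, Kdm5c, Ddx3x and Eif2s3x were lower in both NPC lines than in mESC. Those at Pbdc1 and 5530601H04Rik were higher. A gain or loss of opening at these sites in progenitors is therefore not shown.

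The allele counts asked how much of each opening came from either X. In both NPC lines the first-listed X is the less accessible one on chrX outside the windows: of the allelic reads there it held 20.8% (20.5% to 21.1%) in the C2 line and 7.51% (7.31% to 7.72%) in the sgdgb2 line, against 48.8% (48.5% to 49.1%) in mESC. In the 5 windows together it held 323 of 639 allelic reads in mESC, 440 of 950 in wild-type NPC and 661 of 1329 in deltaFT NPC. These are shares of 50.5% (46.6% to 54.5%), 46.3% (43.1% to 49.6%) and 49.7% (47.0% to 52.5%). The escape windows were read close to equally from both X chromosomes in all 3 lines, with the wild-type NPC interval just below 50%. Kdm6a supplied a large part of these reads, and without it the shares were 51.0% in wild-type NPC and 54.1% in deltaFT NPC.

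**Figure D2:**
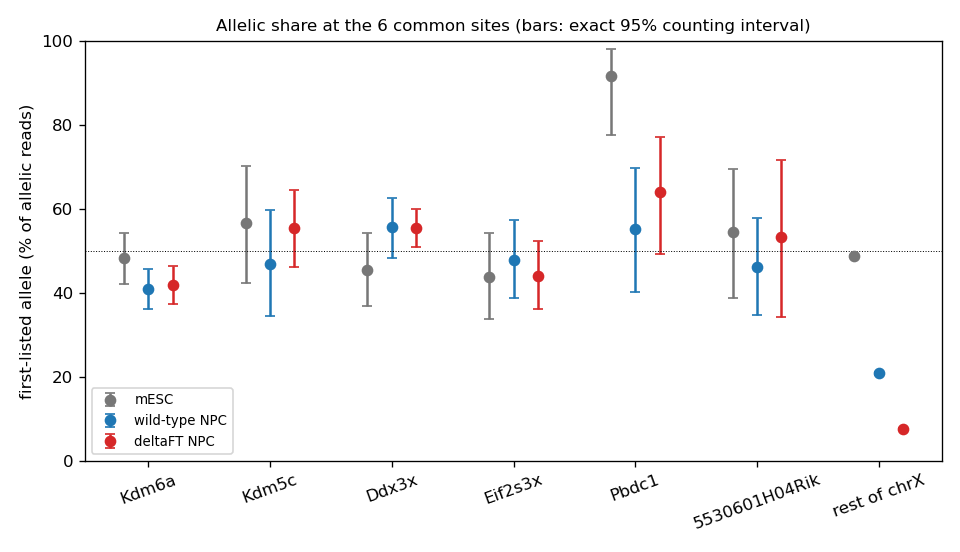
Share of allelic reads from the first-listed allele (y axis, percent) at the 6 common sites and over the rest of chrX in mESC (grey), wild-type NPC (blue) and deltaFT NPC (red); bars are exact 95% intervals for counting error. The sites lie between 40.9% and 64.0% in both NPC lines while the rest of chrX falls to 20.8% and 7.51%; the Pbdc1 site in mESC stands apart at 91.7%.

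A peak with 10 or more allelic reads was classed as shared if neither allele fell under 20% of them. In wild-type NPC 8 of the 8 member peaks with enough reads were shared, next to 26.5% of chrX peaks (25.8% without the windows). In deltaFT NPC 10 of 10 were, next to 10.1% (8.87%). In mESC 6 of 7 were, next to 94.7% (94.8%). Too few allelic reads to be classed were found at 1 of 8 member peaks in mESC, next to 33.9% of chrX peaks, at 2 of 10 in wild-type NPC (41.9%) and at 0 of 10 in deltaFT NPC (38.9%). With at least 50 allelic reads asked, 4 of 4 member peaks were shared in mESC (chrX 97.4%), 5 of 5 in wild-type NPC (32.2%) and 6 of 6 in deltaFT NPC (6.77%). The first-listed allele held more than 50% at 3 of the 7 usable member peaks in mESC (chrX 43.6%), at 2 of 8 in wild-type NPC (8.76%) and at 7 of 10 in deltaFT NPC (2.25%).

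At Kdm6a the first-listed share lay below 50% in both NPC lines by more than counting error. Its common site gave 133 first-listed and 143 second-listed reads in mESC, 172 and 249 in wild-type NPC, and 199 and 276 in deltaFT NPC. The share was 48.2% (42.2% to 54.3%), 40.9% (36.1% to 45.7%) and 41.9% (37.4% to 46.5%). Both NPC intervals lay below 50%, and the mESC interval held it. How many other peaks leave out 50% was not counted, and autosomal peaks also differ between the lines beyond counting error. Whether this lean is particular to the gene was not tested. The ratio of first-listed to second-listed reads was 0.691 and 0.721 in the NPC lines. The change from mESC was -7.33 points (-14.8 to 0.191) in C2 and -6.29 points (-13.6 to 1.06) in sgdgb2, so the interval of each change held 0. Over the whole window, which adds 7 allelic reads in wild type, the change in wild type was -7.53 points (-15.0 to -0.0356). The second Kdm6a peak, at chrX:17831991-17832184 in deltaFT NPC, had 91 reads, 11 of them allelic, and a share of 54.5%; its wild-type match had 131 reads with 7 allelic.

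Ddx3x leaned the other way. Its site gave 60 and 72 reads in mESC, 109 and 87 in wild-type NPC and 263 and 211 in deltaFT NPC, shares of 45.5% (36.8% to 54.3%), 55.6% (48.4% to 62.7%) and 55.5% (50.9% to 60.0%). The deltaFT interval lay above 50%, with the same limit as at Kdm6a. Relative to mESC the first-listed share was higher by 10.2 points (-0.854 to 20.8) in wild type and by 10.0 points (0.410 to 19.4) in deltaFT.

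At the other demethylase gene, Kdm5c, the site gave 30 and 23 reads in mESC, 31 and 35 in wild-type NPC and 66 and 53 in deltaFT NPC. The shares were 56.6% (42.3% to 70.2%), 47.0% (34.6% to 59.7%) and 55.5% (46.1% to 64.6%). At Eif2s3x the site gave 43 and 55, 57 and 62, and 67 and 85 reads, shares of 43.9% (33.9% to 54.3%), 47.9% (38.7% to 57.2%) and 44.1% (36.0% to 52.4%). Every interval of these 2 genes held 50%. In deltaFT the Kdm5c site was the sum of the peak at chrX:148667186-148667568, with 40 and 36 reads (52.6%), and the peak at chrX:148667712-148668036, with 26 and 17 (60.5%). The strongest Eif2s3x peak in wild-type NPC, at chrX:91458464-91459060, gave 38 and 43 reads (46.9%), and its neighbour at chrX:91458204-91458389 gave 17 and 19 (47.2%). In deltaFT the Eif2s3x peak at chrX:91457698-91458399 gave 29 and 45 reads (39.2%) and that at chrX:91458478-91458756 gave 38 and 40 (48.7%). None of these single peaks had an interval that left out 50%. Within the Eif2s3x site the peak at chrX:91457904-91458119 in wild-type NPC had 171 reads but 2 allelic reads, so this stretch can hardly be assigned to an allele. The Eif2s3x window held 2 further peaks with usable counts, each in 1 line. That at chrX:91430582-91430746 in wild-type NPC had 47 reads and a share of 43.8% over 16 allelic reads, and that at chrX:91439304-91439566 in deltaFT NPC had 39 reads and 66.7% over 18.

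The 5530601H04Rik site gave 24 and 20 reads in mESC, 36 and 42 in wild-type NPC and 16 and 14 in deltaFT NPC. The shares were 54.5% (38.8% to 69.6%), 46.2% (34.8% to 57.8%) and 53.3% (34.3% to 71.7%), so every interval held 50% but was wide. The Pbdc1 site next to it was read mostly from the first-listed allele in mESC. It gave 33 first-listed and 3 second-listed reads there, 26 and 21 in wild-type NPC and 32 and 18 in deltaFT NPC. The shares were 91.7% (77.5% to 98.3%), 55.3% (40.1% to 69.8%) and 64.0% (49.2% to 77.1%). In mESC 2.87% of chrX peaks and 1.66% of autosomal peaks had over 80% first-listed reads. No usable member peak had so in NPC, where 0.960% of chrX and 2.77% of autosomal peaks did in wild type, against 0.663% and 1.95% in deltaFT. The share at Pbdc1 in NPC minus that in mESC was -36.3 points (-51.4 to -17.4) in wild-type NPC and -27.7 points (-42.6 to -9.70) in deltaFT. The called intervals overlap and measure 680, 695 and 706 bp. Allelic reads were few at this site, 12.1% of its reads in mESC and 8.27% and 8.93% in the NPC lines, and the part of this in the result was not tested.

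Between the NPC lines with and without the boundary deletion, no change of allelic share was detectable at the escape genes. Summed over the windows, the first-listed share in deltaFT minus that in wild-type NPC was 3.42 points (-0.740 to 7.56), whereas over the rest of chrX it was -13.3 points (-13.7 to -12.9). By site the difference was 1.04 points (-5.41 to 7.46) at Kdm6a, -0.127 points (-8.27 to 8.15) at Ddx3x and -3.82 points (-15.6 to 8.01) at Eif2s3x. It was 8.49 points (-6.38 to 22.9) at Kdm5c, 8.68 points (-10.5 to 27.1) at Pbdc1 and 7.18 points (-13.2 to 26.7) at 5530601H04Rik. All 6 intervals held 0, and differences of several points, or of over 20 points at the 3 sites with fewest reads, were not detectable at this depth.

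Peak by peak, 7 member peaks had at least 10 allelic reads in both NPC lines, and none of the 7 differed beyond counting error. The interval lay below 0 in 26.1% of 514 matched chrX peaks and above 0 in 8.95%. On the autosomes these shares were 14.5% and 9.68% of 22095 peaks, so counting error alone understates the spread between these lines. All 7 were shared in both lines, while of 134 other chrX peaks shared in wild type 29 (21.6%) were shared in deltaFT. The median share of those others went from 42.7% to 4.53%, and that of the 7 members from 47.0% to 52.6%. From mESC to wild-type NPC 1 of 7 member pairs, that of Pbdc1, had an interval below 0 and 0 above, next to 73.1% and 3.25% of matched chrX peaks and 9.95% and 15.5% of autosomal ones. From mESC to deltaFT NPC 1 of 7, Pbdc1, lay below 0 and 1, Ddx3x, above, next to 93.4% and 0.571% on chrX and 11.7% and 12.1% on the autosomes.

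How far the reading from both alleles reached beyond the genes differed between the loci and between the NPC lines. Peaks within 500 kb outside each window were taken as flanks. In mESC 41 of 41 usable flank peaks were shared, next to 94.8% of chrX peaks without the windows. In wild-type NPC 23 of 62 (37.1%) were, next to 25.8%, and in deltaFT NPC 5 of 53 (9.43%), next to 8.87%. The mESC and deltaFT counts are thus close to the chrX level. The first-listed share of all flank reads was 50.0% (48.5% to 51.4%), 26.2% (25.0% to 27.4%) and 9.10% (8.29% to 9.96%). In wild-type NPC this share moved with the distance taken, to 31.1% within 250 kb and 22.6% within 1 Mb.

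Around Kdm5c the reading from both alleles was broad in wild-type NPC. Its flanks, which in gene order lie toward Iqsec2 and Tspyl2, had 11 of 16 usable peaks read from both and a first-listed share of 45.7% (43.4% to 48.0%). In deltaFT NPC 1 of 17 was, with 2 first-listed of 10 allelic reads, and the share was 4.61% (3.60% to 5.80%). The strongest of these peaks by reads, at chrX:148776850-148777499, gave 208 and 238 reads in wild-type NPC and, at chrX:148776852-148777458, 16 and 282 in deltaFT NPC. The peak at chrX:148771054-148771605 gave 161 and 141, against 4 and 186 at chrX:148771034-148771671 in deltaFT. The peak at chrX:148450426-148451098 on the other side gave 204 and 159, against 12 and 285 at the longer peak chrX:148450450-148451595. Of 9 flank peaks read from both in wild type and usable in both lines, 0 were read from both in deltaFT, with median shares of 53.3% and 4.04%. Over all chrX outside the windows 29 of 134 such peaks (21.6%) were, so most lost this reading there too. Inside the window, between these flanks, the Kdm5c site gave the 47.0% and 55.5% reported above.

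**Figure D3:**
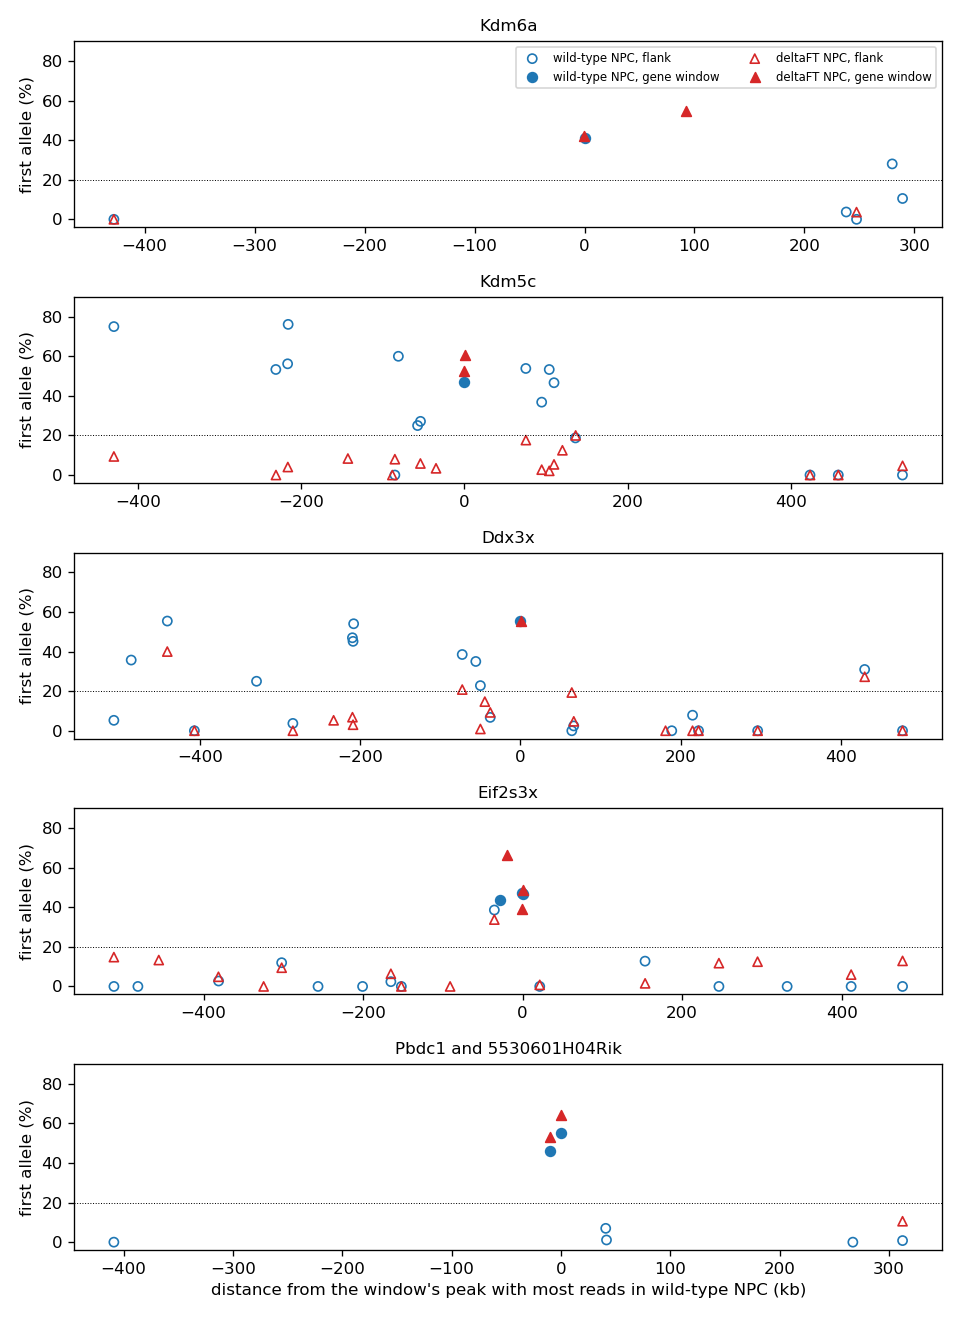
Share of first-listed allele reads (y axis, percent) of peaks with at least 10 allelic reads in and around each gene window, by distance in kb from the window's peak with most reads in wild-type NPC (x axis); blue circles are wild-type NPC, red triangles deltaFT NPC, filled marks lie in the window, and the dotted line is 20%. Filled marks of both lines lie above 20% at each gene, while around Kdm5c the open blue marks are high over much of the flanks and the open red marks are at or under 20%.

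Ddx3x had such flanks on 1 side in wild-type NPC. On the lower side, toward Usp9x, 9 of 13 usable peaks were read from both and the share was 31.8% (28.8% to 34.9%), and on the upper side, toward Nyx, 1 of 8 with 5.40% (3.28% to 8.30%). In deltaFT NPC the lower side had 2 of 10 and 8.34% (6.58% to 10.4%), and the upper side 1 of 8 and 7.01% (4.78% to 9.86%). The peak at chrX:12647681-12648737 gave 70 and 79 reads in wild-type NPC and, at chrX:12647823-12648729, 8 and 109 in deltaFT. Of 6 flank peaks of Ddx3x read from both in wild type and usable in both lines, 3 were read from both in deltaFT. Over all chrX outside the windows 21.6% of such peaks were.

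The other loci had at most 1 shared flank peak in either NPC line. The flanks of Kdm6a had 1 of 5 usable peaks read from both in wild-type NPC and 0 of 2 in deltaFT NPC. The nearest usable ones lay 117 kb and 127 kb above the window in these lines, and no closer flank peak could be classed. Those of Pbdc1 and 5530601H04Rik had 0 of 5 in wild-type NPC and 0 of 1 in deltaFT NPC, where the usable peak lay 277 kb away. A strong peak close above this window, at chrX:102316251-102317175, gave 2 and 179 reads in wild-type NPC, and its share in mESC was 52.8%. The flanks of Eif2s3x, between Zfx and Klhl15, had 1 of 15 in both lines. That peak, at chrX:91422949-91423654 in wild-type NPC, lay 6.35 kb below the window and gave 202 and 321 reads, against 177 and 347 in deltaFT and 149 and 124 in mESC. The peak at chrX:91479834-91480595, 9.83 kb above the window, gave 0 and 58 reads in wild-type NPC, against 1 and 126 in deltaFT and 60 and 52 in mESC. Flank peaks are neighbours on 1 chromosome and not replicates, and differences between loci were not tested.

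In the male cells the question was whether the sites stay open when Xist is induced on the single X. The 6 common sites have a peak in all 4 TXY lists by their definition, so their presence with dox cannot answer it. Of all 13 member peaks of TXY wild type without dox, 8 overlapped a peak with dox, next to 55.5% of chrX peaks and 62.1% of autosomal peaks. Of the 12 of TXY deltaRepA, 8 did, next to 75.0% and 68.7%. Both counts are close to the background, so keeping a peak is no result about these genes.

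Member peaks were also counted by strength. In wild type the 7 member peaks with a −log10 p of at least 10 were all kept, against 941 of 1023 on chrX, and of the 6 weaker ones 1 was. In deltaRepA these numbers were 4 of 4, against 892 of 907 on chrX, and 4 of 8. The 5 wild-type peaks not found with dox were 3 in the Ddx3x window and 2 in the Eif2s3x window, with −log10 p from 3.22 to 7.72. The 4 of deltaRepA were 2 in the Kdm6a window and 1 each in those of Ddx3x and of Pbdc1 with 5530601H04Rik, from 5.06 to 6.65. Among the 8 weaker deltaRepA peaks the kept were mostly the stronger, at 7.50, 6.85, 6.71 and 5.26, and the lost lay at 6.65, 5.74, 5.06 and 5.06. Strength did not order them fully, since a Ddx3x peak at 5.26 was kept and a Kdm6a peak at 6.65 was not. Among all chrX peaks between 5 and 10 on this scale, 283 of 764 had a match with dox in wild type and 721 of 970 in deltaRepA. On the autosomes 66.4% and 78.5% of such peaks had one. Of the weaker wild-type member peaks 4 lay between 5 and 10, with 1 kept, that of Kdm6a at 9.09. The other 2 lay under 5 with 0 kept, next to 96 of 590 chrX peaks. Between the untreated lists, 10 of the 13 wild-type member peaks overlapped a deltaRepA peak, next to 76.0% of chrX and 60.4% of autosomal peaks.

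Within each list the Kdm6a site was the strongest of the members. Its −log10 p exceeded that of 95.7% of chrX peaks in wild type without dox, 98.8% with dox, 96.7% in deltaRepA without dox and 98.5% with dox. The Kdm5c site exceeded 89.5%, 93.6%, 84.1% and 78.5% in the same order. The Ddx3x site exceeded 78.0%, 64.6%, 50.1% and 67.0%, and the Eif2s3x site 75.3%, 64.8%, 73.9% and 41.9%. The Pbdc1 site exceeded 73.7%, 76.8%, 51.2% and 63.6%, and the 5530601H04Rik site 73.7%, 51.0%, 85.4% and 49.4%. Only Kdm6a stayed above 95% in all 4 lists, and the order of the other sites changed from list to list. The lists differ in length, from 1462 to 2504 chrX peaks, and such ranks show no change of a site between them.

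**Figure D4:**
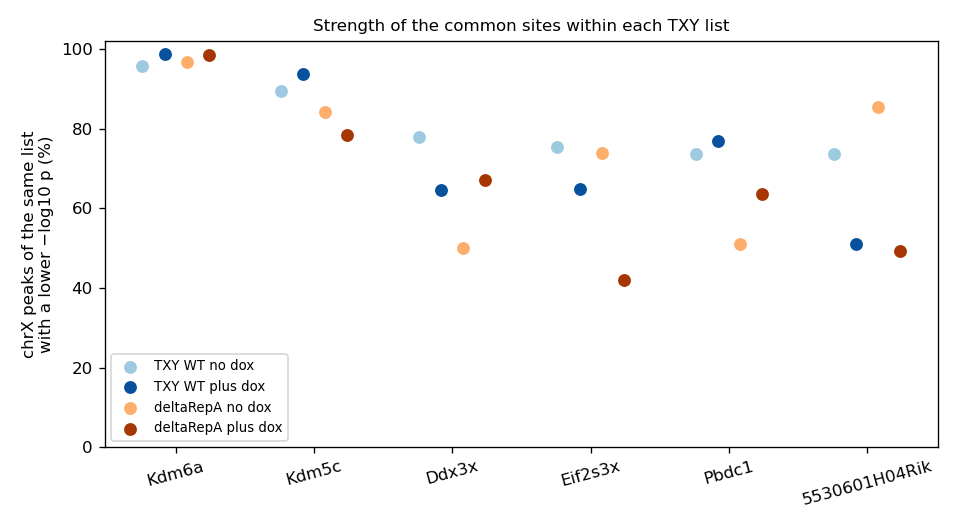
Percent of chrX peaks of the same list with a lower −log10 p (y axis) for the 6 common sites (x axis) in the 4 male TXY lists (colours: wild type blue, deltaRepA orange; darker with dox). The Kdm6a marks lie between 95.7% and 98.8%, while those of 5530601H04Rik spread from 49.4% to 85.4%.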

How the data were processed

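Per the submitters' processing notes, reads were processed with cutadapt, Bowtie2 and MACS2 on mm9; the sources used here do not give versions, duplicate handling, any Tn5 shift or how alleles were assigned. The authors deposited 1 list of reproducible peaks (IDR threshold 0.05) per female line, holding raw counts of reads and of reads from either allele; it is not stated if they sum both libraries. The deposited male lists, named as merged, and the female library lists give the caller's fold enrichment and its −log10 p and q per peak, used only within a list. The source label of the mESC sample names progenitors; its title was followed. The no-dox lists were assigned by the labels' descriptions; the with-dox descriptions name these same lists, and the titles and files recorded for those samples were followed.

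Starts, counted from 0 in the files, were raised by 1. Shares, overlaps of at least 1 bp and flanks of 500 kb used scipy 1.17.1, pandas 2.3.3 and numpy 2.4.6 under python 3.11.15, with matplotlib 3.10.9 for plots. In data simulated for the 833 usable chrX peaks of wild-type NPC, 100% of 200 peaks made with equal alleles were classed as shared. Of the others, made with few first-listed reads, 0% were. Peaks near the 20% limit were not simulated, although chrX outside the windows held 20.8% first-listed reads in this line. The simulation therefore checks the coded rule and not how well it sorts these data. Printed singly were the strongest peak per window in wild-type NPC and every member peak shared in either NPC line; flank peaks named were chosen after their values were seen. The members and lists were chosen with earlier results of these data known. Other escape genes and silenced genes were not placed on mm9 and are not analysed here.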

Additional observations from a re-analysis of the deposited data

How the results depend on the processing

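Of 52 alternatives for the summed results, 42 stayed within the interval or within 1.5 times the count of the value reported, and 10 did not. A reversal was scored only for a difference whose interval left out 0, and no main difference was of this kind, so none could be found. The settings that asked for at least 20 raw reads dropped no member peak, since the fewest were 90, 47 and 39, and so could not move a share. With at least 50 allelic reads asked, 5 member peaks of wild-type NPC and 6 of deltaFT NPC were shared, which were all that qualified. Without the Kdm6a window, an alternative chosen after seeing the data, the first-listed share came to 51.0% for wild-type NPC and 54.1% (50.7% to 57.5%) for deltaFT NPC. In deltaFT NPC it was 54.4% without the peak with most reads of each window and 53.9% as a median over peaks. With −log10 q of at least 5 in both lists, 3 of 5 member peaks of TXY deltaRepA were kept with dox. The share of flank reads in wild-type NPC was 31.1% within 250 kb and 22.6% within 1 Mb, and in deltaFT NPC 7.46% within 1 Mb. The cause was not tested beyond the fewer peaks or other distance that each setting takes. No paired analysis was possible because each group is 1 sample. Depth limits the sites of Pbdc1, 5530601H04Rik and Kdm5c most, with 30 to 119 allelic reads each.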
